A study of Mus musculus with 30 samples.

Results

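The comparison covers ovaries of adult female CD1 mice, an outbred stock, that had been given one of a pair of phthalate plasticizers at a shared dose and were examined directly after dosing. Of the 30 libraries of the study, 6 were taken because their titles carry these treatments and this time point. They are 3 libraries of mice given di(2-ethylhexyl) phthalate (DEHP) at 20 ug/kg/day and 3 of mice given diisononyl phthalate (DiNP) at 20 ug/kg/day, each for 10 days with ovaries collected at 0 months. The other groups used here are the 3 vehicle libraries at 0 months and the 3 DEHP 20 and 3 DiNP 20 libraries collected 3 months after dosing. The p-values and standard errors rest on the spread between replicates pooled over all 10 groups of the 30 libraries, not on the compared libraries alone. The labels do not say whether the replicates of a group came from separate mice, from pools or from the same sample. That spread may therefore differ from the spread between single mice, and may be partly technical.

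DEHP and DiNP are diesters of phthalic acid that soften polyvinyl chloride. DEHP carries branched octyl side chains, and DiNP is a mixture with slightly longer branched nonyl chains. In the body, esterases and lipases remove a side chain to give a monoester, which is then oxidized and conjugated. Monoesters of this class are known ligands of the peroxisome proliferator-activated receptors (PPARs), nuclear receptors that control fatty acid oxidation and lipid storage. The ovary holds oocytes inside follicles, granulosa cells that make inhibins and oestrogen, theca cells that make androgens, and corpora lutea that make progesterone from cholesterol.

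The deposited values are log2 CPM, in which counts are scaled to the size of each library, for 18022 genes, of which 14740 had a mean above 0 log2 CPM and were tested. Read depth could not be measured from these values. A step between low values, searched only in a preset range that bounds the answer, would equal 29.3 to 32.9 M reads (M, mega) in the 6 libraries. That step was not shown to be 1 read. Correlations across genes ran from 0.961 to 0.975 among DEHP 20 libraries, from 0.954 to 0.977 among DiNP 20 libraries, and from 0.954 to 0.976 between a DEHP 20 and a DiNP 20 library, so a library was as much like those of the other compound as like its own group. On the second principal component of the 15 libraries at 0 months, which held 15.9% of the variance, DEHP 20 replicate 1 stood at -36.96 and DiNP 20 replicate 3 at -30.45, while the other 4 libraries lay between 2.27 and 23.84. Results that rest on these 2 libraries are given with their values below.

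No gene passed the test between the compounds. With limma, 0 of 14740 genes (0%) had a Benjamini-Hochberg adjusted p under 0.05, and the lowest adjusted p was 0.9999, also when the pair at 0 months and the pair at 3 months were adjusted together. At an unadjusted p under 0.05 there were 302 genes (2.05%), 159 higher (1.08%) and 143 lower (0.97%) with DEHP 20 than with DiNP 20, where 737 would be at that level with no difference anywhere. Without DiNP 20 replicate 3 that count was 762, still with 0 genes at an adjusted p under 0.05. Values of the groups did not overlap in 1410 genes (9.57%), of which 714 were higher (4.84%) and 696 lower (4.72%) with DEHP 20. Each difference below is DEHP 20 minus DiNP 20 on the log2 scale, with 3 libraries in each group and its standard error from the pooled spread. None of these differences passed the adjusted test, which does not show that the compounds act alike.

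The data bound the size of a difference for most genes. The 95% interval of the difference lay within 2-fold in either direction for 11884 genes (80.6%). The median interval reached 0.41 on the log2 scale to either side of its estimate, or 1.33-fold, and it ran from 0.22 at the 10th percentile of genes to 0.95 at the 90th percentile. Differences over 2-fold were seen in 196 genes, 65 higher and 131 lower with DEHP 20. The vehicle comparisons of the same 6 libraries also had no gene under 0.05. DEHP 20 against vehicle had 350 genes at an unadjusted p under 0.05 (2.37%) and DiNP 20 against vehicle had 307 (2.08%), and both used the same vehicle libraries.

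The smallest p among genes higher with DEHP 20 belonged to Nr0b2 (Entrez 23957, chromosome 4, 133553376 to 133556686 in GRCm38.p6), which encodes the small heterodimer partner, a nuclear receptor that lacks a DNA-binding domain and represses other nuclear receptors. Nr0b2 had 1.91, 0.88 and 1.37 log2 CPM with DEHP 20, against 0.10, -0.32 and 0.19 with DiNP 20 and 0.53, 0.16 and 1.53 with vehicle. All 3 DEHP 20 libraries lay above all 3 DiNP 20 libraries, and the vehicle libraries spanned both. The difference was 1.4 ± 0.37 (limma, unadjusted p = 0.000903), or 2.64-fold.

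Several other genes in this direction are known for signalling. Hes1, a repressor that Notch signalling induces, had 5.05, 4.95 and 4.79 log2 CPM with DEHP 20, against 4.64, 4.44 and 4.31 with DiNP 20 (difference 0.46 ± 0.14). Nos3, the endothelial nitric oxide synthase, had 5.08, 4.75 and 5.16 with DEHP 20, against 4.24, 4.09 and 4.63 with DiNP 20 (0.68 ± 0.21). Rgs3, a regulator that shortens G protein signalling, had 6.51, 6.83 and 6.53 with DEHP 20, against 6.14, 6.04 and 6.35 with DiNP 20 (0.45 ± 0.12). In these 3 genes the groups did not overlap, and the vehicle means of 4.86 for Hes1, 4.73 for Nos3 and 6.42 for Rgs3 lay between the means of the compounds. Kcnk1, a potassium channel that sets the resting potential, had 3.72, 4.68 and 3.99 log2 CPM with DEHP 20, against 2.55, 2.74 and 1.92 with DiNP 20. Its difference of 1.73 ± 0.55, or 3.31-fold, left a gap of 0.98 log2 units between the groups, but the vehicle libraries ran through the gap at 2.74, 3.33 and 4.56.

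The other genes among the 12 with the smallest p in this direction were Slc25a13, the mitochondrial aspartate and glutamate carrier (0.59 ± 0.18), Thg1l, a tRNA-histidine guanylyltransferase (0.73 ± 0.21), Pde9a, a phosphodiesterase of cyclic GMP (0.67 ± 0.22), Icam4, an adhesion molecule of red cells (0.88 ± 0.29), Aste1 (0.48 ± 0.15), the long noncoding RNA 9630013D21Rik (1.20 ± 0.34) and H2-T-ps (1.35 ± 0.44), which is described with its neighbours below.

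Among genes lower with DEHP 20, Zkscan3, a zinc finger repressor of autophagy genes, had the smallest p of the comparison (0.000793). It stood at 5.96, 5.66 and 5.73 log2 CPM with DEHP 20, against 6.33, 6.41 and 6.09 with DiNP 20 and 5.69, 6.24 and 5.99 with vehicle (difference -0.49 ± 0.13). Cited2, a coactivator partner of CBP and p300, stood at 7.37, 7.26 and 7.43 with DEHP 20, against 7.99, 8.29 and 7.62 with DiNP 20 and 7.58, 7.53 and 7.60 with vehicle (-0.61 ± 0.17). The vehicle libraries of Cited2 lay within 0.07 of each other, above the DEHP 20 libraries and below the DiNP 20 libraries. Bcl6, a transcriptional repressor best known from germinal centre B cells, stood at 4.49, 4.40 and 5.29 with DEHP 20, against 6.09, 5.91 and 5.97 with DiNP 20 and 4.48, 5.55 and 4.79 with vehicle. Here the DiNP 20 libraries lay above all DEHP 20 and vehicle libraries, and the difference was -1.26 ± 0.39. Acvr1, a type I receptor of activins and bone morphogenetic proteins, stood at 5.05, 5.20 and 5.38 with DEHP 20, against 5.59, 5.88 and 5.77 with DiNP 20 (-0.54 ± 0.17).

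The rest of the 12 in this direction were Zfp120 (-0.33 ± 0.09), 5031439G07Rik (-0.30 ± 0.10), the zinc finger gene Zfp703 (-0.31 ± 0.10), Rab11fip3, an effector of recycling endosomes (-0.22 ± 0.07), Itga2b, the platelet integrin chain (-0.77 ± 0.25), the pseudogene Rbm3-ps (-2.12 ± 0.65), and BC051142 and Gm10499 on chromosome 17. Rbm3-ps resembles its parent gene in sequence, so its values are uncertain.

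**Figure D1:**
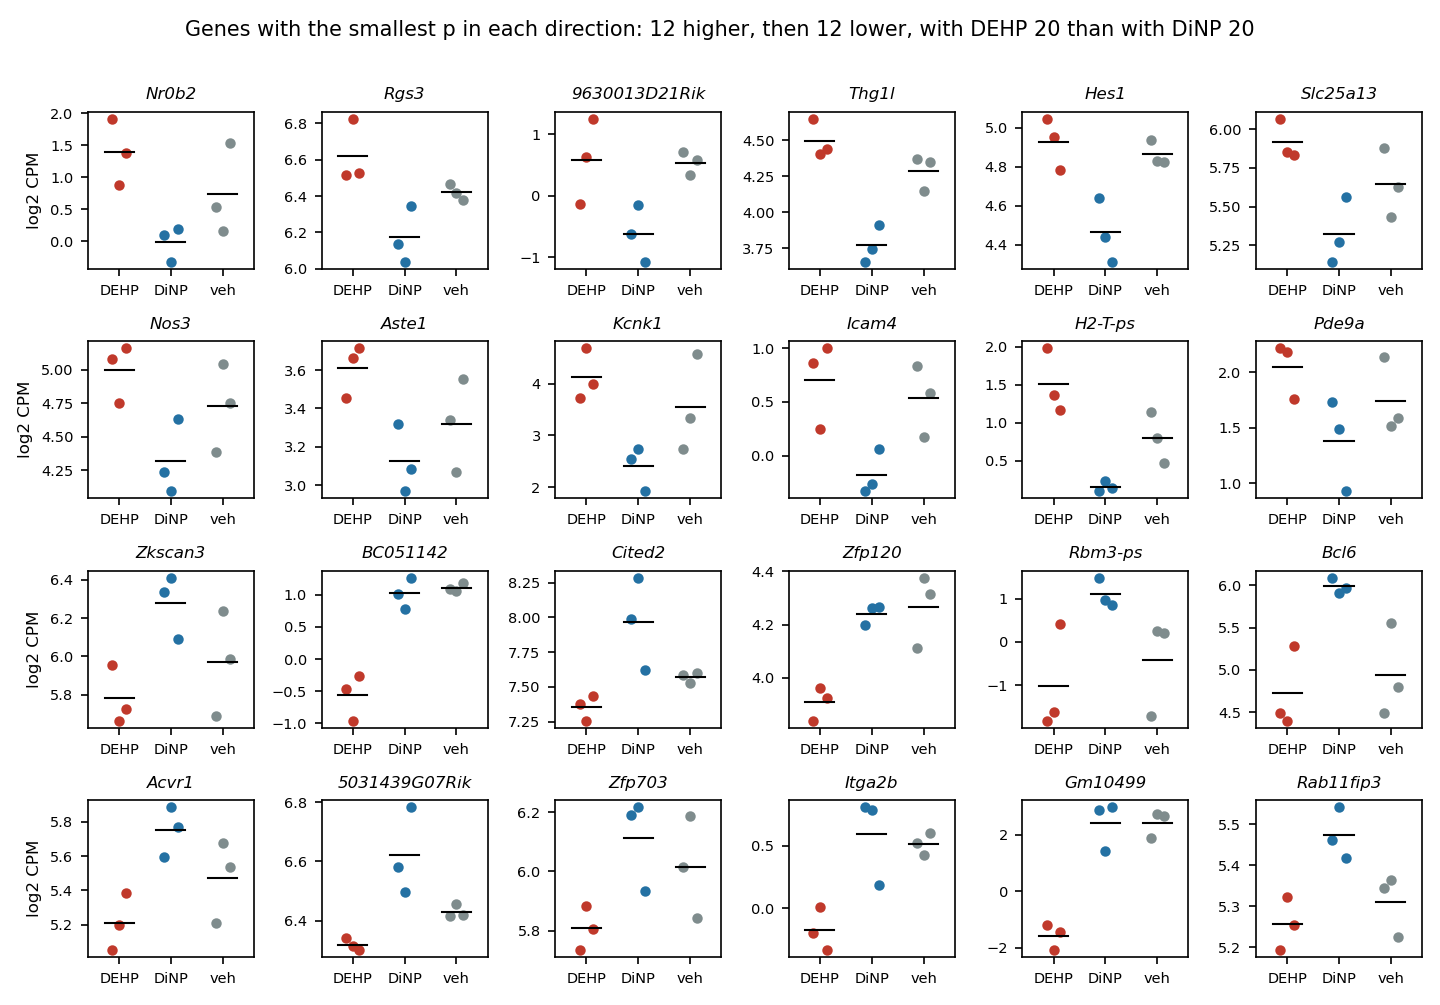
Log2 CPM of each library at 0 months (points) with the group mean (bar) for the 12 genes with the smallest p in each direction, in the order DEHP 20, DiNP 20, vehicle (veh). DEHP 20 and DiNP 20 do not overlap in these panels, whereas vehicle often lies between them or spans both, as for Nr0b2 and Kcnk1.

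Gene lists for the cell types and pathways of the ovary were then described by the sign of their members and their median difference, beside 51.2% of all tested genes with a positive sign and a median of 0.00. No member of any of the 36 lists passed the adjusted test. The lists whose medians lay farthest above 0 among those with at least 10 tested members were oocyte (0.36), proliferation (0.32), interferon response (0.32) and granulosa cell (0.28), and those farthest below were adipocyte (-0.54), corpus luteum (-0.34) and ovarian surface and mesothelium (-0.30).

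**Figure D2:**
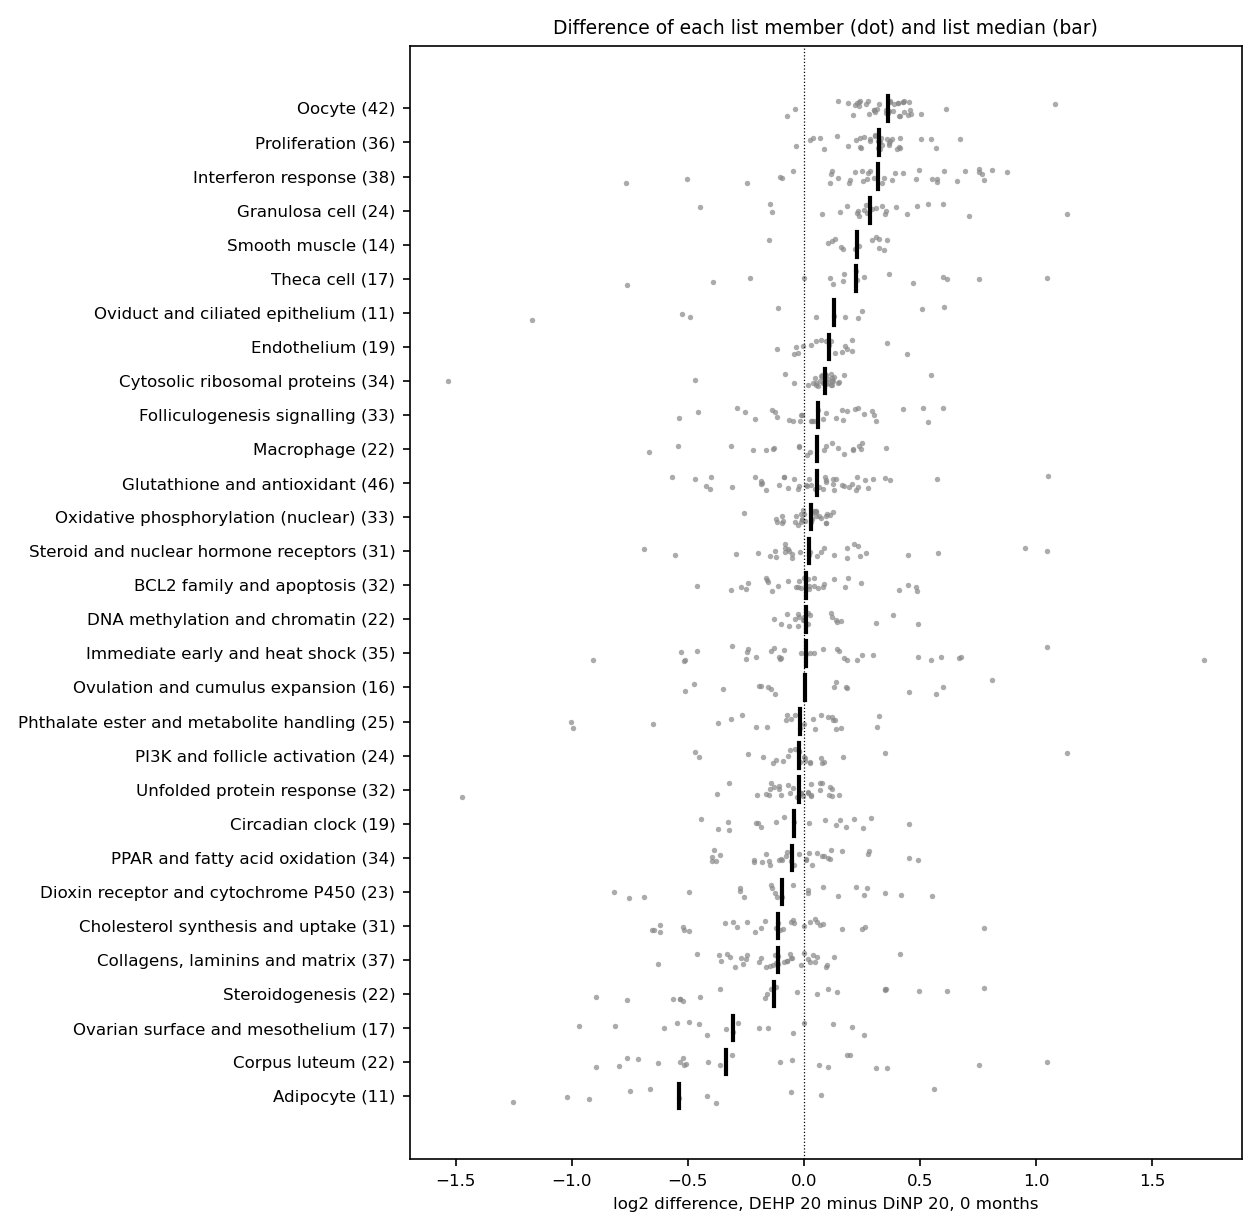
Log2 difference, DEHP 20 minus DiNP 20 at 0 months, of each list member (dots) and the list median (bars) for lists with at least 10 tested members, with the number tested in parentheses. Oocyte members lie almost all right of 0 with a median of 0.36, and adipocyte members mostly left of 0 with a median of -0.54.

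Of 42 tested oocyte genes 40 had a positive difference, but none had an unadjusted p under 0.05 (2.05% of all genes did), and 3 did not overlap between the groups, against 4.84% of all genes in this direction. Zp3, a zona pellucida glycoprotein to which sperm bind, had 5.71, 6.41 and 5.88 log2 CPM with DEHP 20, against 5.45, 5.37 and 5.82 with DiNP 20 and 5.98, 5.27 and 5.91 with vehicle (0.45 ± 0.36). Gdf9, a growth factor that oocytes send to granulosa cells, had 6.48, 7.15 and 6.74 with DEHP 20, against 6.29, 6.07 and 6.73 with DiNP 20 (0.43 ± 0.36, 95% interval -0.31 to 1.16). In both genes DEHP 20 replicate 2 was the highest of the 6 libraries. Bmp15, its partner in oocyte signalling, differed by 0.30 (-0.51 to 1.11), and Oog1, an oocyte gene of a multicopy family whose reads may be shared between copies, by 1.08 (-0.12 to 2.28).

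Averaged over the 42 oocyte genes, the level was 4.10, 4.76 and 4.39 log2 CPM with DEHP 20, against 3.97, 4.0 and 4.24 with DiNP 20 and 4.37, 3.68 and 4.23 with vehicle. The spread among vehicle libraries, 0.69, was larger than the difference between the compounds. With 1 library left out in turn the list median stayed between 0.17, without DEHP 20 replicate 2, and 0.51, without DEHP 20 replicate 1. Against the shared vehicle libraries the medians were 0.28 for DEHP 20 and -0.10 for DiNP 20. In whole ovaries, fewer cells of a type and less RNA per cell cannot be told apart.

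Granulosa cell genes had 21 of 24 members with a positive difference, and 6 that did not overlap between the groups, against 4.84% of all genes in this direction. Inha, the inhibin alpha subunit by which the ovary restrains follicle-stimulating hormone, had 11.43, 11.01 and 11.26 log2 CPM with DEHP 20, against 10.23, 10.90 and 10.77 with DiNP 20 and 11.23, 11.12 and 10.92 with vehicle. All DiNP 20 libraries lay below all DEHP 20 and vehicle libraries, and the difference was 0.60 ± 0.27 (limma, unadjusted p = 0.0357, adjusted p = 0.9999). The beta subunits of inhibins and activins were Inhba, with a difference of 0.31 (-0.56 to 1.18), and Inhbb, with 0.53 (-0.24 to 1.31). Kitl, the granulosa cell ligand of the oocyte receptor KIT, had 7.01, 6.26 and 6.18 with DEHP 20, against 6.11, 4.78 and 5.18 with DiNP 20 and 4.85, 5.21 and 7.39 with vehicle. Its compound groups did not overlap, yet vehicle alone spanned more than both, and the interval of the difference ran from -0.41 to 2.68.

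The other members of this cell type that did not overlap were Bex2, Ccnd2, Npr2 and Gja1, chosen here after their values were seen, with differences of 0.71, 0.34, 0.27 and 0.24. Ccnd2 is the cyclin through which granulosa cells divide, Npr2 the receptor that holds oocytes in meiotic arrest, and Gja1 the gap junction protein connexin 43. Averaged over the 24 genes, the level was 7.52, 7.33 and 7.44 with DEHP 20, against 6.97, 7.31 and 7.12 with DiNP 20 and 7.58, 7.44 and 7.24 with vehicle. Against vehicle the medians were -0.01 for DEHP 20 and -0.38 for DiNP 20. The hormone receptor Fshr, which granulosa cells use to sense follicle-stimulating hormone, differed by 0.40 (-0.32 to 1.11), and Amh, the hormone of small growing follicles, by 0.29 (-0.49 to 1.08).

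Signals of folliculogenesis taken as a list, 33 genes of the transforming growth factor beta family and its pathway, had 20 positive and 13 negative members and a median of 0.06. For 24 of them the 95% interval lay within 2-fold, against 80.6% of all genes. Inha and Acvr1 were the only members at an unadjusted p under 0.05, in opposite directions, against 2.05% of all genes. The compound groups did not overlap in 1 higher and 4 lower members, against 4.84% and 4.72% of all genes. The 24 genes of PI3K signalling and follicle activation had a median of -0.02, and 21 of them had an interval within 2-fold.

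Proliferation genes had 35 of 36 members with a positive difference and a median of 0.32. Cdc20, an activator of the anaphase-promoting complex, had 5.80, 5.24 and 5.18 log2 CPM with DEHP 20, against 4.53, 4.49 and 5.17 with DiNP 20 and 5.24, 4.92 and 4.93 with vehicle (0.67 ± 0.27, limma unadjusted p = 0.0203). The cyclin gene Ccnb2 had 5.03, 5.02 and 5.02 with DEHP 20, against 4.21, 4.28 and 4.93 with DiNP 20 and 5.01, 4.97 and 4.71 with vehicle (0.55 ± 0.26). In both genes DiNP 20 replicate 3 lay just below the DEHP 20 libraries, and DiNP 20 replicates 1 and 2 lay below all vehicle libraries.

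Averaged over the 36 proliferation genes, the level was 5.72, 5.34 and 5.42 with DEHP 20, against 4.92, 5.05 and 5.59 with DiNP 20 and 5.51, 5.33 and 5.23 with vehicle. DiNP 20 replicate 3 exceeded 2 of the 3 DEHP 20 libraries and all vehicle libraries, while DiNP 20 replicates 1 and 2 lay below all others. Leaving out 1 library at a time moved the median between 0.15, without DiNP 20 replicate 1, and 0.55, without DiNP 20 replicate 3. The intervals of 30 members lay within 2-fold. Against vehicle the medians were 0.14 for DEHP 20 and -0.17 for DiNP 20. In these libraries both the granulosa cell list and the proliferation list were lowest in DiNP 20 replicate 1, at 6.97 and 4.92. The lists parted in DiNP 20 replicate 3. Its granulosa cell mean of 7.12 lay below all DEHP 20 and vehicle libraries, and its proliferation mean was 5.59. The part of granulosa cell content in the proliferation values was not tested.

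Interferon response genes, which cells switch on when they sense viral nucleic acid or interferon, had 32 of 38 members with a positive difference and a median of 0.32. The 3 members higher at an unadjusted p under 0.05, against 1.08% of all genes, were Mx2, Dhx58 and Irf9, of which Dhx58 and Irf9 were named after their values were seen. Mx2, an antiviral GTPase, had 1.65, 1.11 and 1.87 log2 CPM with DEHP 20, against 0.62, 0.86 and 0.84 with DiNP 20 and 1.14, 0.90 and 0.44 with vehicle (0.77 ± 0.27). Dhx58, an RNA helicase that tunes RNA sensing, had 1.44, 1.55 and 2.26 with DEHP 20, against 0.91, 0.89 and 1.02 with DiNP 20 and 1.35, 0.81 and 1.11 with vehicle (0.81 ± 0.29). Irf9, the DNA-binding subunit of the interferon-activated complex ISGF3, had 4.95, 4.25 and 5.38 with DEHP 20, against 4.07, 4.05 and 4.19 with DiNP 20 and 4.31, 4.34 and 3.84 with vehicle (0.76 ± 0.29). The groups of the compounds did not overlap in these 3 genes. Eif2ak2, the kinase PKR that halts translation on double-stranded RNA, had 5.34, 5.38 and 5.35 with DEHP 20, against 5.16, 4.84 and 4.95 with DiNP 20 and 5.10, 4.92 and 5.08 with vehicle (0.38 ± 0.20).

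The mean of the 38 interferon genes was 3.80, 3.00 and 3.58 with DEHP 20, against 2.98, 3.24 and 3.19 with DiNP 20 and 2.96, 2.86 and 2.61 with vehicle. DEHP 20 replicate 2 lay at the level of DiNP 20, and the median moved between 0.14 without DEHP 20 replicate 1 and 0.56 without DEHP 20 replicate 2. Against vehicle the medians were 0.63 for DEHP 20, with 35 of 38 positive, and 0.27 for DiNP 20, with 33 of 38 positive, where 51.3% and 49.7% of all genes were positive in these comparisons, which share the vehicle libraries. The other direction was led by Ifi204, a DNA-sensing family member with close paralogs, at 1.93, 3.47 and 4.25 with DEHP 20, against 4.70, 3.77 and 3.48 with DiNP 20 (-0.77 ± 0.62).

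The promoters of 3 interferon response genes are shown because genes of this kind are known to carry a control sequence, the core of the interferon-stimulated response element, written as GAAA, any 2 bases and GAAA and searched on both strands. Sequences are RefSeq windows of GRCm38.p6 with 250 bases before and 50 after the start of the gene, 5′ to 3′ on the strand of the gene, with matches in capitals. They lie at chr4:156200769-156201068 on the minus strand for Isg15, at chr19:34640639-34640938 on the plus strand for Ifit1 and at chr5:120907476-120907775 on the minus strand for Oas1a.
Isg15: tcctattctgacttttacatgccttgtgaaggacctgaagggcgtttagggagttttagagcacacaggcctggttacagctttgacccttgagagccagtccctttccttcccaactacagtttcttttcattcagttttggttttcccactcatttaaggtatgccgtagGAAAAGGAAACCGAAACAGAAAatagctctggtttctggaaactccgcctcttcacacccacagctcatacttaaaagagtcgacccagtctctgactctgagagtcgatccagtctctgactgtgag
Ifit1: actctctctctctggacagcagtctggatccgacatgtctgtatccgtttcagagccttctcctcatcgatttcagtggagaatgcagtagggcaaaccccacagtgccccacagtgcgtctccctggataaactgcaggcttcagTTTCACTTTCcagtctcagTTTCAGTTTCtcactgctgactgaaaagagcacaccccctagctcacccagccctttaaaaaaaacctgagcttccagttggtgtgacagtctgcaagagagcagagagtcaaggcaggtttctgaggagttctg
Oas1a: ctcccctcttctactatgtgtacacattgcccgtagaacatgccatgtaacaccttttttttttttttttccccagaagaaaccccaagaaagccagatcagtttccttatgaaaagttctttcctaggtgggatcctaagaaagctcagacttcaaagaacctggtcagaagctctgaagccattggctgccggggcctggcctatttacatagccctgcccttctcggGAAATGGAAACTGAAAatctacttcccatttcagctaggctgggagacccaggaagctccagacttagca
Isg15 held 3 overlapping matches that begin 78, 72 and 66 bases before the start, Ifit1 held 2 on the opposite strand that begin 104 and 85 bases before it, and Oas1a held 2 overlapping ones at 20 and 14 bases.

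Among promoters of the interferon list 16 of 32 (50%) held the motif, against 449 of 14778 (3.04%) promoters of tested genes, which include those of the list. The 32 promoters belonged to 27 of the 38 tested members, some with more than 1 promoter, and 15 of these genes held the motif. A match is a description of the sequence and not a measured binding site. Isg15, a ubiquitin-like protein that is attached to other proteins, had 2.40, 0.76 and 1.88 log2 CPM with DEHP 20, against 0.70, 0.99 and 1.08 with DiNP 20 and 0.95, -0.08 and -0.43 with vehicle (0.76 ± 0.55). Ifit1, which binds viral RNA, had 1.85, 0.54 and 2.01 with DEHP 20, against 0.26, 0.83 and 0.68 with DiNP 20 and 0.33, 0.17 and 0.06 with vehicle (0.88 ± 0.48). Oas1a, an oligoadenylate synthetase with close paralogs, had 0.32, -0.22 and 0.26 with DEHP 20, against -0.73, -0.35 and -0.02 with DiNP 20 (0.48 ± 0.58). In Isg15 and Ifit1 the DEHP 20 libraries 1 and 3 were high and replicate 2 lay within the DiNP 20 range, as in the list mean.

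**Figure D3:**
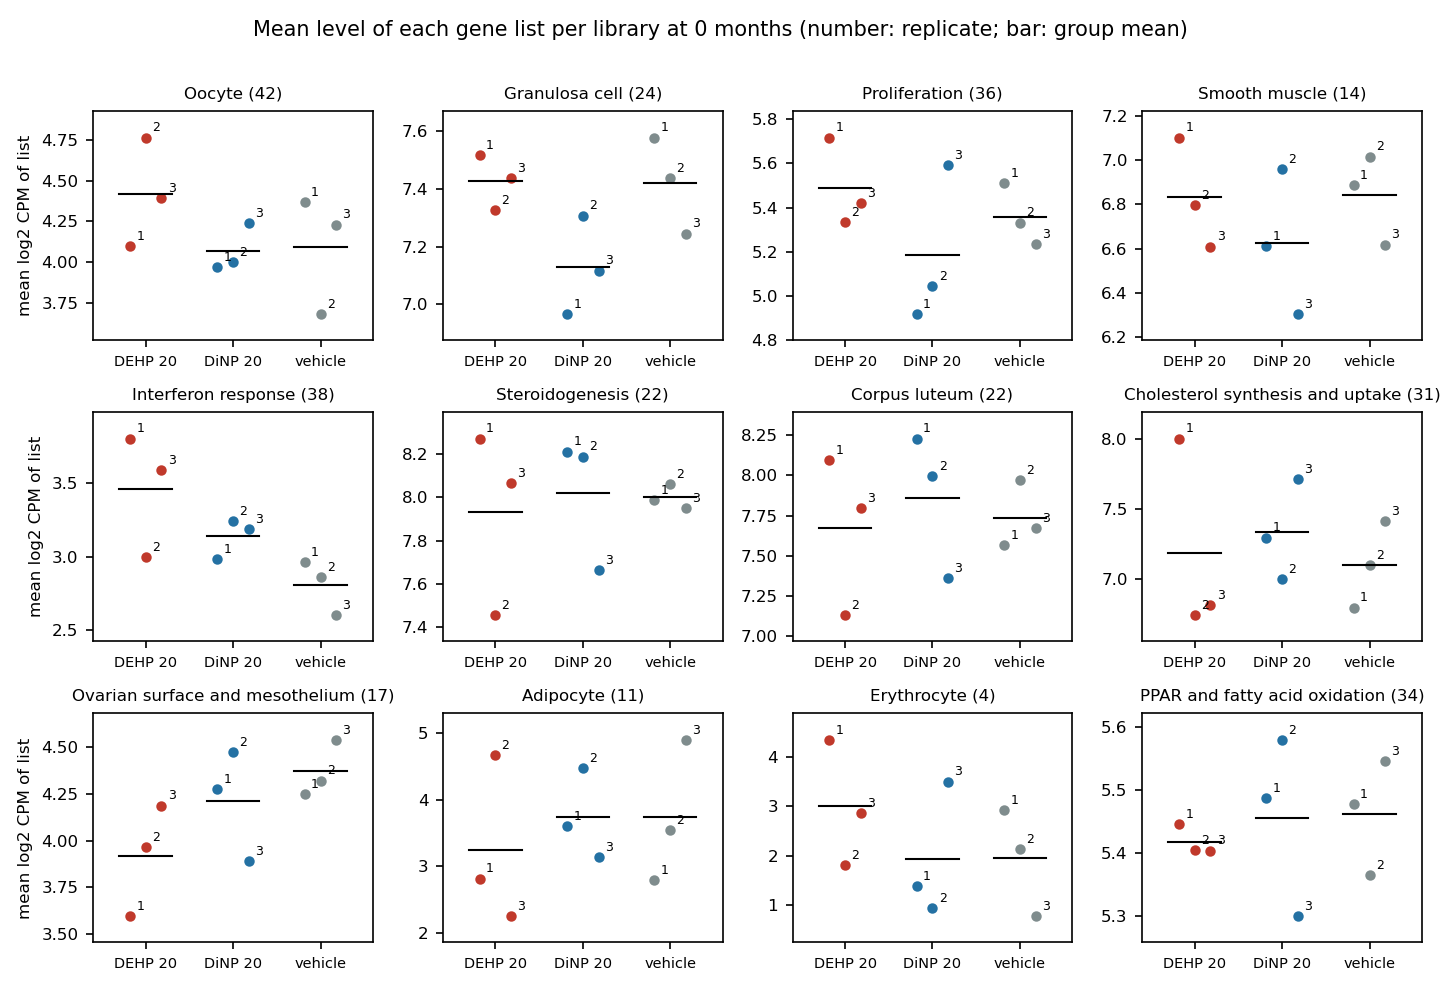
Mean log2 CPM over the tested genes of 12 lists in each library at 0 months, for DEHP 20, DiNP 20 and vehicle, with replicate numbers beside the points, group means as bars and the number of genes in parentheses. In each list the libraries of at least 1 group spread as far as the compounds differ, and DEHP 20 replicate 1 and DiNP 20 replicate 3 are the highest of their groups for cholesterol synthesis, at 8.0 and 7.72.

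Steroidogenic and luteal genes varied widely within both groups. Star, which carries cholesterol into mitochondria, had 12.82, 7.95 and 10.62 log2 CPM with DEHP 20, against 11.86, 11.75 and 10.46 with DiNP 20 and 9.6, 10.79 and 9.74 with vehicle. The DEHP 20 libraries alone spanned 4.86 log2 units, and the interval of the difference, -3.72 to 1.93, lay on both sides of 0. Cyp11a1, which cuts the cholesterol side chain, had 12.80, 11.73 and 12.44 with DEHP 20, against 13.37, 13.03 and 12.86 with DiNP 20 and 12.20, 12.66 and 12.85 with vehicle (-0.76 ± 0.75). It was the only 1 of 22 tested steroidogenesis genes whose compound groups did not overlap, a share near the 4.72% of all genes in this direction.

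Akr1c18, the enzyme that inactivates progesterone when a corpus luteum regresses, had 7.37, 4.94 and 9.42 with DEHP 20, against 12.28, 11 and 0.05 with DiNP 20 and 8.16, 10.21 and 6.41 with vehicle. DiNP 20 replicate 3 stood 10.95 log2 units below the next DiNP 20 library. The difference of -0.53 ± 2.47 ran between -4.39 and 1.72 when 1 library was left out. Ptgfr, the prostaglandin F receptor that starts luteal regression, had 9.15, 9.16 and 9.57 with DEHP 20, against 10.98, 10.29 and 9.01 with DiNP 20 (-0.80 ± 1.25). Cyp17a1, which makes androgens, differed by 0.62 (-1.48 to 2.71), Cyp19a1, the aromatase, by -0.45 (-2.20 to 1.30), and Hsd3b1, which makes progesterone, by 0.10 (-0.61 to 0.81). Lhcgr, the luteinizing hormone receptor, differed by 0.75 (-0.74 to 2.24).

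Of 22 corpus luteum genes 8 were positive, with a median of -0.34, but the median moved to 0.04 without DEHP 20 replicate 2 and to -0.04 without DiNP 20 replicate 1. Their mean was 8.09, 7.13 and 7.80 with DEHP 20, against 8.23, 8.0 and 7.36 with DiNP 20. Cholesterol synthesis and uptake genes had 9 of 31 positive members and a median of -0.11, which moved to -0.53 without DEHP 20 replicate 1 and to 0.06 without DEHP 20 replicate 2. Npc1, the lysosomal cholesterol exporter, had 6.91, 5.96 and 6.48 with DEHP 20, against 7.14, 6.84 and 7.31 with DiNP 20 (-0.65 ± 0.31, limma unadjusted p = 0.0497). The list mean was 8.0, 6.74 and 6.81 with DEHP 20, against 7.30, 7.0 and 7.72 with DiNP 20 and 6.79, 7.10 and 7.41 with vehicle, so that DEHP 20 replicate 1 stood over 1 log2 unit above its group and DiNP 20 replicate 3 highest in its own.

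Genes that handle phthalates differed in both directions. Of 25 tested genes for esters and metabolites 12 were positive, with a median of -0.02, and 18 had a 95% interval within 2-fold, against 80.6% of all genes. Without DiNP 20 replicate 3 the count of positive members was 8, with a median of -0.05. Lpl, a lipase that also cleaves phthalate diesters, differed by 0.07 (-0.31 to 0.46), and Aldh1a1, an aldehyde dehydrogenase, by 0.12 (-0.38 to 0.63). Slco3a1, an organic anion transporter, had the smallest p of the positive members with 0.32 (-0.14 to 0.79), and Ugt1a7c, a glucuronosyltransferase, that of the negative ones with -0.65 (-1.46 to 0.16). Abcb1b, an efflux transporter named after its values were seen, had the lowest difference of the list at -1.01 (-3.61 to 1.60), with 7.71, 6.71 and 8.29 log2 CPM with DEHP 20, against 9.66, 9.42 and 6.64 with DiNP 20. DiNP 20 replicate 3 was the lowest of these 6 libraries.

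The intervals of the PPAR genes differed in width. Ppara differed by 0.28 (-0.34 to 0.90), Ppard by 0.02 (-0.19 to 0.23) and Pparg by 0.05 (-0.33 to 0.44), so that all 3 intervals lay within 2-fold. Among 34 genes of PPAR signalling and fatty acid oxidation 15 were positive, with a median of -0.05, and 26 had intervals within 2-fold. Without DiNP 20 replicate 3 only 8 were positive (median -0.11), and the median was 0.02 without DiNP 20 replicate 1 and 0.03 without replicate 2. Plin2, a lipid droplet coat protein and PPAR target, had 5.77, 5.65 and 5.70 log2 CPM with DEHP 20, against 6.20, 6.42 and 5.59 with DiNP 20 and 5.94, 6.0 and 6.04 with vehicle (-0.36 ± 0.17, limma unadjusted p = 0.0459). The DiNP 20 libraries lay on both sides of the DEHP 20 libraries. Pex11a, a peroxisome proliferation factor, differed by 0.11 (-0.11 to 0.33).

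The dioxin receptor Ahr differed by -0.28 (-0.81 to 0.26) and its target Cyp1b1 by -0.14 (-0.70 to 0.42). Of 23 genes of the dioxin receptor and cytochrome P450 list, Cyp4f13 and Cyp4f16 had an unadjusted p under 0.05, both lower, against 0.97% of all genes. Cyp4f13, which belongs to a family of fatty acid hydroxylases, had 3.44, 3.5 and 3.88 with DEHP 20, against 4.50, 4.35 and 4.22 with DiNP 20 and 3.86, 3.94 and 4.08 with vehicle (-0.75 ± 0.25). Cyp4f16 had 3.02, 2.89 and 2.56 with DEHP 20, against 3.24, 3.38 and 3.34 with DiNP 20 and 3.21, 3.24 and 3.40 with vehicle (-0.49 ± 0.23). The compound groups did not overlap in either gene, and the vehicle values lay mostly between them for Cyp4f13 and at the DiNP 20 level for Cyp4f16. Ahrr, the repressor of the dioxin receptor, had 1.03, 1.27 and 0.79 with DEHP 20, against 0.51, 0.48 and 0.45 with DiNP 20 (0.55 ± 0.34).

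Glutathione and antioxidant genes had 28 of 46 positive members and a median of 0.06. Without DEHP 20 replicate 1 the count was 20 of 46 and the median -0.05, and without DiNP 20 replicate 3 they were 25 and 0.02. The 3 members higher at an unadjusted p under 0.05, against 1.08% of all genes, were Gstp2 (1.05 ± 0.41), Gstp1 (0.57 ± 0.25) and Mgst3 (0.37 ± 0.17), and the last 2 were named after their values were seen. Gstp1, a glutathione transferase, had 7.44, 7.15 and 7.67 log2 CPM with DEHP 20, against 7.25, 6.59 and 6.69 with DiNP 20 and 7.46, 7.21 and 7.72 with vehicle. Gstp1 and Gstp2 are near-identical copies among which reads may be split, so their values are uncertain. The DEHP 20 libraries of Gstp1 stood close to vehicle and 2 of 3 DiNP 20 libraries below.

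Receptors for steroids and other nuclear hormones were balanced, with 16 of 31 positive and a median of 0.02, and 22 intervals lay within 2-fold. Esr1, the oestrogen receptor alpha of theca and stroma, had 6.28, 5.61 and 5.65 with DEHP 20, against 5.37, 5.86 and 4.96 with DiNP 20 (0.45 ± 0.23, 95% interval -0.04 to 0.93). Esr2, the oestrogen receptor of granulosa cells, differed by 0.23 (-0.63 to 1.09), Pgr, the progesterone receptor, by 0.18 (-0.74 to 1.11), and Vdr, the vitamin D receptor, by -0.69 (-1.41 to 0.03).

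In a panel of 29 genes of ovarian function and phthalate response, 22 differences were positive and 7 negative with a median of 0.19. Inha was the only panel gene at an unadjusted p under 0.05, against 2.05% of all genes. For 11 of the 29 the interval lay within 2-fold, against 80.6% of all genes. The widest intervals belonged to Akr1c18, Star, Ptgfr and Cyp17a1.

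**Figure D4:**
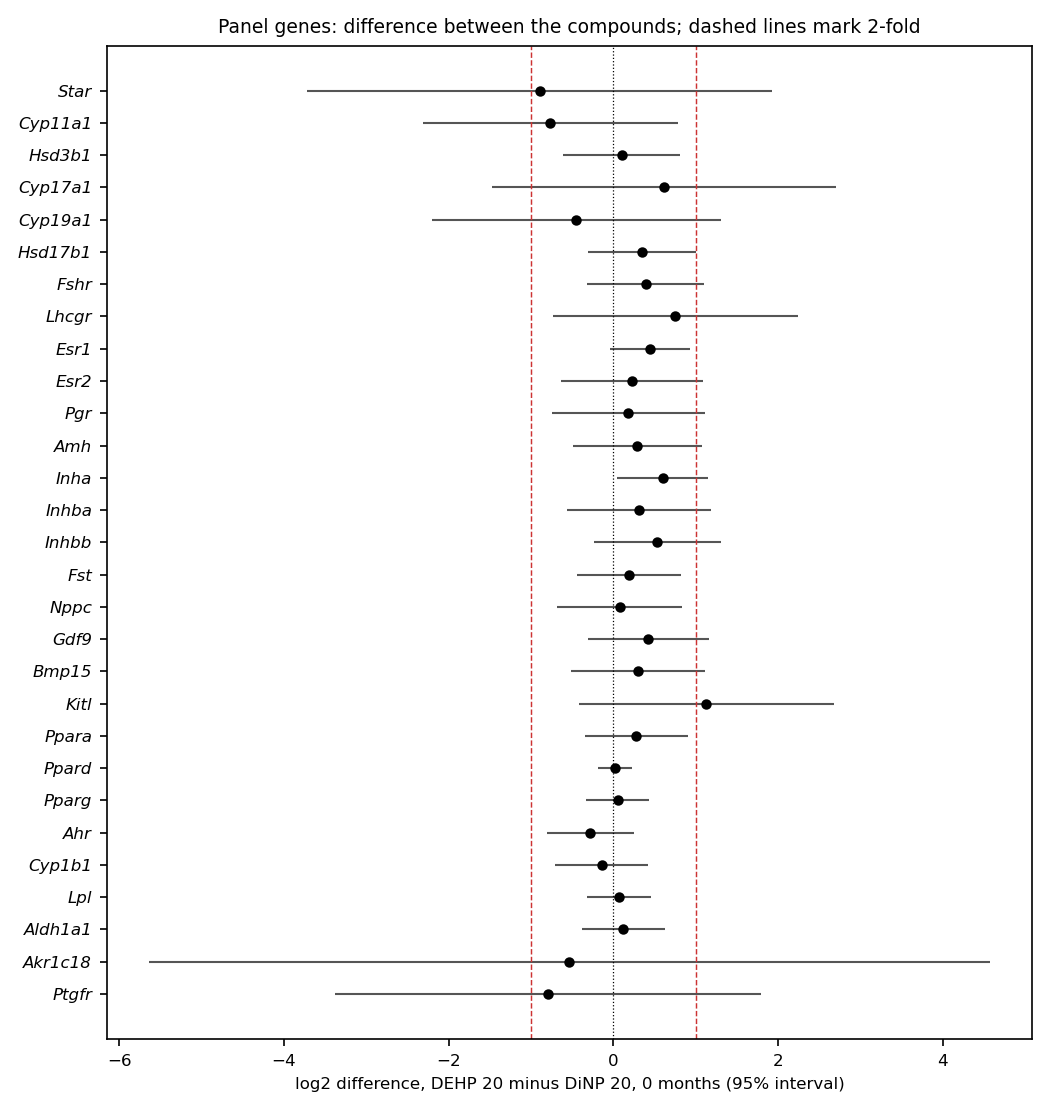
Difference of 29 panel genes, DEHP 20 minus DiNP 20 at 0 months on the log2 scale (points), with the 95% interval of the limma fit (lines) and dashed lines at 2-fold. Of the 29 intervals 11 lie within 2-fold, Inha alone excludes 0 (0.04 to 1.15), and Akr1c18 spans -5.64 to 4.58.

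Other cell types that a dissected ovary can hold were checked with their markers. Adipocyte markers had 11 of 16 genes tested, 2 of them positive, with a median of -0.54. Their mean was 2.82, 4.67 and 2.26 log2 CPM with DEHP 20, against 3.60, 4.47 and 3.14 with DiNP 20 and 2.80, 3.55 and 4.89 with vehicle. DEHP 20 replicate 2 and DiNP 20 replicate 2 were high, the groups overlapped, and the median moved to -1.4 without DEHP 20 replicate 2, to 0.12 without DEHP 20 replicate 3 and to -0.07 without DiNP 20 replicate 2. Adipoq, the hormone adiponectin, had -0.82, 3.18 and -1.0 with DEHP 20, against 1.42, 2.88 and 0.82 with DiNP 20 and -0.47, 1.18 and 3.64 with vehicle. The part of fat tissue in other results was not tested.

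Markers of the ovarian surface and mesothelium had 3 of 17 positive members and a median of -0.30, which stood at -0.09 if either DEHP 20 replicate 1 or DiNP 20 replicate 2 was left out and at -0.49 if DEHP 20 replicate 3 was. Rspo1, a Wnt enhancer, had 2.61, 3.12 and 3.16 with DEHP 20, against 3.24, 3.85 and 3.15 with DiNP 20 and 3.26, 3.56 and 3.85 with vehicle (-0.45 ± 0.22). The list mean was 3.60, 3.97 and 4.19 with DEHP 20, against 4.27, 4.48 and 3.89 with DiNP 20 and 4.25, 4.32 and 4.54 with vehicle, so that all DEHP 20 libraries lay below the vehicle range. Against vehicle the medians were -0.46 for DEHP 20 and -0.14 for DiNP 20. Smooth muscle markers had 13 of 14 positive members and a median of 0.23, which fell to 0.089 without DEHP 20 replicate 1 and to 0.084 without DiNP 20 replicate 3, and was 0.42 without DiNP 20 replicate 2. Theca cell markers had 13 of 17 positive members and a median of 0.22, or 0.18 to 0.29 without 1 library.

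Endothelial markers had 14 of 19 positive members, a median of 0.11 and all 19 intervals within 2-fold, and the median was 0.01 without DEHP 20 replicate 1 and 0.07 without DiNP 20 replicate 3. Sox18, an endothelial transcription factor, had 6.10, 5.41 and 5.54 with DEHP 20, against 5.38, 5.15 and 5.19 with DiNP 20 (0.44 ± 0.19, limma unadjusted p = 0.0277). Macrophage markers had 13 of 22 positive members and a median of 0.06, but 4 of 22 and -0.19 without DiNP 20 replicate 3. Without DEHP 20 replicate 1 the median was 0.02, and without DiNP 20 replicates 1 or 2 it was 0.16 or 0.13. Of the 4 tested erythrocyte genes Hbb-bs, a beta globin, had 6.52, -0.83 and 4.08 with DEHP 20, against -2.08, -2.83 and 4.82 with DiNP 20 and 4.08, -2.01 and -2.81 with vehicle, so that high and low libraries occurred in each group. Globin genes have near-identical copies, and these values are uncertain. Only 2 of 18 markers of T, B and NK cells and 3 of 13 of granulocytes were abundant enough to test.

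Stress and housekeeping lists had medians between -0.11 and 0.09. The BCL2 family and apoptosis list had 16 of 32 positive members. At an unadjusted p under 0.05 it had 1 higher and 1 lower member, against 1.08% and 0.97% of all genes. The lower one was Birc2, an inhibitor of apoptosis, at -0.27 ± 0.11 (limma, unadjusted p = 0.0221). The compound groups did not overlap in 6 higher members and 1 lower one, against 4.84% and 4.72% of all genes. Unfolded protein response genes had a median of -0.02 and 28 of 32 intervals within 2-fold, with Chac1, a glutathione-degrading enzyme, widest at -1.47 (-3.23 to 0.28). Oxidative phosphorylation genes had a median of 0.03, 18 of 33 positive members and all 33 intervals within 2-fold, and without DEHP 20 replicate 1 the median was -0.07 with 4 of 33 positive. Cytosolic ribosomal protein genes had a median of 0.09 with 30 of 34 positive. That median was 0.03 without DiNP 20 replicate 1, 0.04 without replicate 2 and 0.19 without replicate 3. Collagens, laminins and matrix genes had a median of -0.11 with 9 of 37 positive, which turned to 0.03 with 21 of 37 without DiNP 20 replicate 2 and was -0.26 with 5 of 37 without DiNP 20 replicate 3.

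Genes that respond to acute signals differed singly. Socs3, a feedback inhibitor of cytokine receptors, had 4.14, 4.98 and 4.73 with DEHP 20, against 4.12, 3.86 and 3.85 with DiNP 20 and 4.56, 3.99 and 4.09 with vehicle (0.68 ± 0.31). Per1, a clock repressor that glucocorticoids also induce, had 5.97, 6.10 and 5.79 with DEHP 20, against 5.44, 5.56 and 5.50 with DiNP 20 and 5.90, 5.97 and 6.52 with vehicle (0.45 ± 0.19). For Per1 the DiNP 20 libraries lay below all others. Runx1, a transcription factor that ovulation induces, had 4.51, 5.15 and 5.05 with DEHP 20, against 5.31, 5.40 and 5.41 with DiNP 20 and 4.79, 5.16 and 4.59 with vehicle (-0.47 ± 0.23), with DiNP 20 above all others. Cebpb, a transcription factor of the ovulatory response, had 6.58, 5.65 and 5.79 with DEHP 20, against 5.35, 5.58 and 5.39 with DiNP 20 (0.57 ± 0.29). Uhrf1, which guides maintenance DNA methylation, differed by 0.49 ± 0.23. Of 22 genes of DNA methylation and chromatin only Uhrf1 had an unadjusted p under 0.05, against 2.05% of all genes.

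The widest gaps between groups that did not overlap fell partly in the major histocompatibility complex (H2) of chromosome 17, a region of near-identical gene copies in which read assignment is uncertain. H2-Bl, a transcribed class I pseudogene (36080110 to 36084249), had -3.34, 1.02 and -2.92 log2 CPM with DEHP 20, against 3.93, 3.04 and 4.0 with DiNP 20 and 3.02, 3.97 and 4.03 with vehicle (-5.40 ± 2.32). The value of -3.34 is the lowest of the table. Gm10499 (36141748 to 36146200) had -1.19, -2.08 and -1.44 with DEHP 20, against 2.89, 1.42 and 2.98 with DiNP 20 and 1.89, 2.72 and 2.68 with vehicle (-4.0 ± 1.33). BC051142 (34398767 to 34460734) had -0.46, -0.96 and -0.26 with DEHP 20, against 1.01, 0.78 and 1.26 with DiNP 20 and 1.09, 1.05 and 1.19 with vehicle (-1.58 ± 0.42). In these 3 genes the DEHP 20 libraries were low and vehicle stood with DiNP 20.

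Low values of the same genes also occurred in other groups. Gm10499 lay below 0 log2 CPM in 6 of 30 libraries, 3 of them outside DEHP 20 at 0 months, and H2-Bl in 7 of 30, 5 of them outside that group. H2-T-ps had 1.98, 1.37 and 1.17 with DEHP 20, against 0.09, 0.23 and 0.14 with DiNP 20 and 1.14, 0.80 and 0.46 with vehicle. H2-Eb1, a class II chain that presents antigen, had 5.95, 4.91 and 4.10 with DEHP 20, against 0.12, 3.73 and 0.07 with DiNP 20 and 3.91, 0.12 and -0.23 with vehicle (3.68 ± 1.54), so that high and low libraries occurred together among DiNP 20 and among vehicle libraries. Of 28 tested H2 genes, a set formed after their values were seen, 20 were positive and 8 negative with a median of 0.40. The class II genes H2-Aa and H2-Ab1 differed by 0.16 ± 0.55 and 0.56 ± 0.54.

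**Figure D5:**
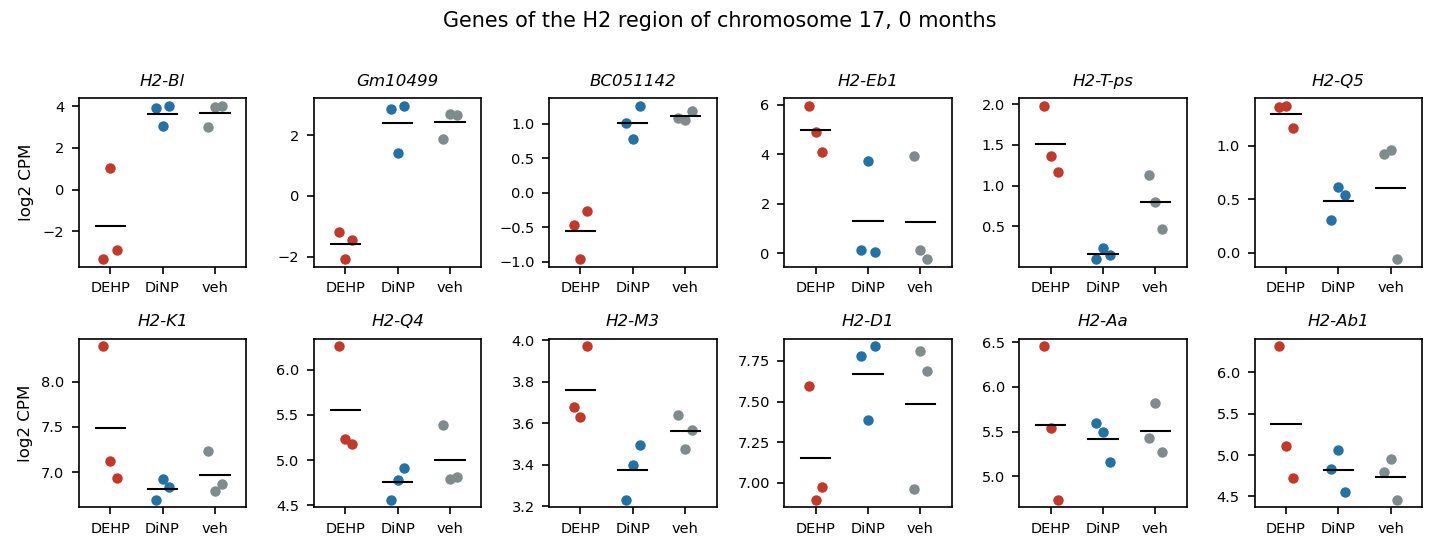
Log2 CPM of each library at 0 months (points) and group means (bars) for 12 genes of the H2 region, in the order DEHP 20, DiNP 20, vehicle (veh). H2-Bl, Gm10499 and BC051142 are low in DEHP 20 libraries, with means of -1.75, -1.57 and -0.56, while H2-Eb1 lies near 0 in 4 of the DiNP 20 and vehicle libraries and near 4 log2 CPM in the other 2.

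Outside this region the widest gaps belonged to Kcnk1 and to Ccdc33, Sbsn, Zfp97, LOC101055758 and Gm15433. Ccdc33, a coiled-coil protein, had 0.85, 1.03 and 1.71 with DEHP 20, against 2.75, 3.01 and 3.08 with DiNP 20 and 1.12, 2.25 and 2.78 with vehicle (-1.75 ± 0.80). Sbsn, the epithelial protein suprabasin, had 2.79, 2.42 and 2.58 with DEHP 20, against 4.72, 3.69 and 4.39 with DiNP 20 and 2.82, 2.91 and 2.39 with vehicle (-1.67 ± 0.83). For Sbsn vehicle stood with DEHP 20. Zfp97 had 2.28, 2.17 and 2.65 with DEHP 20, against 0.69, 0.84 and 0.99 with DiNP 20 and 1.45, 0.76 and 0.72 with vehicle (1.53 ± 0.81).

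The only other pair at a matched dose and time was that of the libraries collected 3 months after dosing. There 0 of 14740 genes (0%) passed with limma, 427 had an unadjusted p under 0.05 (2.9%), and the lowest adjusted p was 0.56. Bcl6 was at 5.16 ± 1.12 log2 CPM with DEHP 20, against 6.26 ± 0.22 with DiNP 20 (SD, n = 3 each), a difference of -1.11 ± 0.39 beside -1.26 ± 0.39 at 0 months. Nr0b2 was at 1.59 ± 0.32 with DEHP 20, against 0.81 ± 0.10 with DiNP 20 (SD, n = 3 each), a difference of 0.78 ± 0.37 beside 1.4 ± 0.37. These pairs share no library, and Bcl6 and Nr0b2 were singled out after their values were seen. Of the 24 genes with the smallest p at 0 months, 16 had the same sign at 3 months and 8 the opposite one. With an unadjusted p under 0.05 at 3 months there were Nr0b2, Bcl6 and Zfp703 with the same sign and H2-T-ps with the opposite one. Others stood near 0 there, with differences of 0.02 for Hes1, 0.04 for Rgs3, -0.05 for Nos3 and -0.07 for Zkscan3, and BC051142 differed by 0.38. Gm10499 and H2-Bl were not low in DEHP 20 at 3 months, with means of 3.59 and 4.83 log2 CPM.

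The change of the compound difference between the time points was tested directly and passed for 0 of 14740 genes (0%) with limma, with 285 at an unadjusted p under 0.05 (1.93%). H2-T-ps had the smallest p among positive changes, with a difference of 1.35 at 0 months and -1.67 at 3 months. Cyp4f16 had the smallest among negative ones, with -0.49 at 0 months and 0.64 at 3 months. At 3 months the list medians were 0.09 for oocyte, 0.10 for proliferation, -0.01 for granulosa cell, -0.23 for interferon response and 0.07 for the ovarian surface and mesothelium, against 0.36, 0.32, 0.28, 0.32 and -0.30 at 0 months.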

How the data were processed

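Per the submitters' processing notes, FastQC 0.11.8, Salmon 0.11.3, edgeR and R 3.5.2 were used with GRCm38.p6, and per the labels' protocols whole-ovary RNA went into stranded mRNA libraries read from one end. The authors deposited 1 table of log2 CPM for 18022 genes and 30 libraries. Its lowest value was -3.34 (0.0986 CPM) and column sums, back-transformed, ran from 907668 to 1164842. Whole reads could not be recovered, since only 10.7 to 18.5% of values under 5 CPM lay within 0.05 reads of a whole multiple. Count tests were therefore not used and depth is not known. Of the genes 17770 (98.6%) matched RefSeq.

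The 14740 genes whose mean exceeded 0 log2 CPM entered 1 linear model (limma 3.58.1 under R 4.3.3, with statmod 1.5.0), which had a variance prior that follows expression and a mean for each of the 10 groups of 30 libraries (20 residual degrees of freedom, prior 2.85, median residual SD 0.246). Adjusted p-values are Benjamini-Hochberg over all tested genes.

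The named genes were the 12 with the smallest p in each direction, the panel, the list members with the smallest p in each direction, the 10 with the widest gaps between groups, and the smallest p in the other comparisons; not every one is printed, and some are withheld from the text. Zp3, Eif2ak2, Isg15, Ifit1, Oas1a, Adipoq, H2-Eb1, H2-Aa, H2-Ab1 and those marked in the text were added after their values were seen. The members and lists were chosen with earlier results of these data known. Lists were described by counts and medians, without a test. Alternatives covered normalization, filters, a pseudocount, variance models, other sets of libraries, replicate number as a block and leaving out each library.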

Additional observations from a re-analysis of the deposited data

How the results depend on the processing

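The count of genes with an adjusted p under 0.05 between DEHP 20 and DiNP 20 at 0 months stayed at 0 under every alternative and every left-out library. Against vehicle and for the change between time points the count was also 0 under every alternative run. The lowest adjusted p did depend on the model. With limma and array weights it was 0.067 between the compounds at 0 months, against 0.9999 in the main fit, and 0.059 for the change between time points. With array weights, which gave DEHP 20 replicate 1 a weight of 0.641 and DiNP 20 replicate 3 one of 0.588, 3 genes passed at 3 months in place of 0, and 2552 genes in place of 302 had an unadjusted p under 0.05 at 0 months; the weighting had not reached its convergence tolerance. The count was 611 with the 6 libraries alone, and 212 to 762 without 1 library, highest without DiNP 20 replicate 3; the cause was not tested. Deviations of same-numbered libraries correlated at -0.26, -0.16 and -0.36, so no likeness by replicate number was seen. With 3 libraries per group these values cannot show whether replicate numbers pair the samples, and the labels were not used to pair them. With replicate number as a block in limma 0 genes passed and 295 had an unadjusted p under 0.05. Array weights reversed H2-Aa (-0.38), Lpl (-0.036) and Ppard (-0.060). Leaving out 1 library reversed Akr1c18 (-4.39 to 1.72), Aldh1a1 (-0.0059 to 0.27), Cyp19a1 (-0.97 to 0.14), Cyp1b1 (-0.24 to 0.0083), H2-Aa (-0.28 to 0.58), Hsd3b1 (-0.032 to 0.37), Lpl (-0.15 to 0.29), Ppard (-0.068 to 0.11), Pparg (-0.14 to 0.34) and Star (-2.07 to 0.36). Of 99 genes named, 1062 of 1065 values under other settings and 577 of 594 values without a library kept their sign and their side of the threshold. These counts say little about stability. Settings such as a robust variance estimate, fewer groups in the fit or the replicate block left the differences unchanged, so no sign could change there. Genes whose compound groups did not overlap, for which many were named, could not change sign without 1 library. Of the list medians, 391 of 393 under other settings and 213 of 216 without a library moved by less than the spread between replicates. Array weights still changed the sign of some medians, such as glutathione and antioxidant (0.06 to -0.02), macrophage (0.06 to -0.11) and oxidative phosphorylation (0.031 to -0.008). With them the smooth muscle median fell from 0.23 to 0.03. The count of 213 of 216 says little, because leaving out 1 of 3 libraries cannot shift a group mean by that spread. A list median is not so bound, and 3 of the 216 moved further. Some list medians changed sign without 1 library, such as corpus luteum (-0.43 to 0.04), adipocyte (-1.40 to 0.12) and oxidative phosphorylation (-0.07 to 0.08). Having 3 libraries per compound limits the precision.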
